A study of Mus musculus with 6 samples.

Results

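The replication-dependent histone genes were examined for DNA break ends in sorted forebrain neurons. These were the protein-coding genes of the GENCODE vM21 annotation (mm10) whose symbols start with Hist1h, Hist2h, Hist3h or Hist4h, 67 of 21755 protein-coding genes on chromosomes 1 to 19 and X. They comprised 6 H1, 18 H2A, 18 H2B, 12 H3 and 13 H4 genes. Chromosome 13 carried blocks of 18, 5, 29 and 2 of them, chromosome 3 carried 10, chromosome 11 carried 2 and chromosome 6 carried 1. Each gene was taken with 1 kb on either side, and overlapping stretches were merged into 34 regions of 199 kb. In 55 of the 67 genes this stretch overlapped that of another histone gene, so the values of neighbours share reads.

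Break ends were mapped by BLISS, in which double-strand ends in fixed nuclei are repaired, joined to an adaptor, copied by in vitro transcription and sequenced. Each aligned read was counted at its 5′ end, which marks the joined end. The titles sort the 6 libraries into the groups Step1, Step2 and Con, with 2 libraries each. All 6 were labelled forebrain neurons of CK-p25 mice after 2 weeks of induction by taking doxycycline out of the diet, Con included. In these mice the CaMKII promoter drives the doxycycline control of p25, an activator of the kinase Cdk5, in forebrain excitatory neurons. The labels do not say what sets Con, Step1 and Step2 apart or whether replicates are separate animals, so the p-values here measure only the spread between libraries, which may be technical. Depth was 2403238 and 2043098 reads in Step1, 1526487 and 1480461 in Step2, and 2300995 and 2273508 in Con. The labelled cell type cannot be checked from DNA ends.

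Replication-dependent histone genes supply the bulk of new histones in S phase. The core histones H2A, H2B, H3 and H4 form the nucleosome around which DNA is wrapped, and linker histone H1 binds where DNA enters and leaves it. The genes are short, lack introns and lie in clusters, often as divergent H2A and H2B pairs that share a promoter. Their messenger RNAs end in a conserved stem-loop bound by SLBP instead of a poly(A) tail, and NPAT activates their transcription when phosphorylated by cyclin E and Cdk2. Neurons do not divide, and most of these genes are far less active in them than in cycling cells.

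The promoters with the most ends are printed here because the ends lay in them and not in the genes. RefSeq genes were matched to all 67 symbols and promoters (GRCm38.p6) to 62. The promoters of Hist1h2bc, Hist1h3a, Hist1h3f, Hist2h2be and Hist2h4 were not matched. Each line runs 5′ to 3′ on the strand of the named gene over the 200 bases before its RefSeq start, and capitals mark CCAAT boxes (CCAAT), octamers (ATTTGCAT), TATA boxes (TATAAA) and H1 boxes (AAACACA), read on both strands. Hist1h2bg lies on the plus strand (chr13:23571200-23571399) and shares its promoter with Hist1h2ae. Hist1h2ad is also on the plus strand (chr13:23574181-23574380) and faces Hist1h2bf. Hist1h2ac is on the minus strand (chr13:23683960-23684159) and faces Hist1h2bc. Hist2h2bb is on the plus strand (chr3:96269500-96269699) downstream of Hist2h3b, in a stretch that an antisense GENCODE gene also covers, so its ends cannot be given to one of them.
Hist1h2bg: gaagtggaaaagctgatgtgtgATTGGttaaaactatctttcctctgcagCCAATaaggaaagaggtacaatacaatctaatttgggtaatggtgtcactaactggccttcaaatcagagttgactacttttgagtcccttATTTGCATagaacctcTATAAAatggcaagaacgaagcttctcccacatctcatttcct
Hist1h2ad: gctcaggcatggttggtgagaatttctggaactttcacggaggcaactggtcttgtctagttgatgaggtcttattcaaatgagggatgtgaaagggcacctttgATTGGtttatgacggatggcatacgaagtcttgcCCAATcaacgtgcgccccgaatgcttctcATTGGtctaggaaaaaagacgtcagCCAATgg
Hist1h2ac: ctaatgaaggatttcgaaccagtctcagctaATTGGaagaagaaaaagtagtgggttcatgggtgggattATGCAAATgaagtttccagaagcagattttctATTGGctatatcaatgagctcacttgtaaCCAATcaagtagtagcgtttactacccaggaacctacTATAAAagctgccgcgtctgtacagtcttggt
Hist2h2bb: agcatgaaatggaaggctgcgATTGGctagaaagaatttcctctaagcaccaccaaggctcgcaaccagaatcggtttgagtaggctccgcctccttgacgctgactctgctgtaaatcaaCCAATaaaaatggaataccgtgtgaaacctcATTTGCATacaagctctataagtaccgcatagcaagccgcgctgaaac
CCAAT boxes bind the factor NF-Y, and the octamer binds Oct-1, the product of Pou2f1. A CCAAT box occurred in 53 of the 62 histone promoters, which run from 250 bases before to 50 after the start, against 37.4% of all 32851 RefSeq promoters of that length. All 18 H2A, 16 H2B, 10 H3 and 6 H1 promoters held one, but only 3 of 12 H4 promoters did. The octamer was in 14 of the 62, all of them H2A or H2B promoters, against 1.74% of all promoters. A TATA box was in 35 of them, against 13.6% of all promoters. The H1 box was in 9, among them 5 of the 6 H1 promoters, against 7.18% of all promoters. A match describes letters and not a bound site.

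The histone regions held 273 and 301 read ends in Step1, 180 and 193 in Step2, and 395 and 627 in Con. The density was expressed as RPKM, the ends per kb in a library scaled to 1000000 reads, with library size counted outside 26 piled-up windows of 10 kb that hold extreme read numbers. It was 0.600 and 0.777 in Step1, 0.619 and 0.683 in Step2, and 0.899 and 1.44 in Con. Every Step1 and Step2 library lay below both Con libraries. The mean was 0.689 ± 0.125 in Step1 and 0.651 ± 0.0452 in Step2, against 1.17 ± 0.383 in Con (SD, n = 2 each), ratios of 0.589 and 0.556 to Con. The exact two-sided permutation test gave p = 0.333 for either group against Con, which is the smallest that 2 libraries against 2 allow, and p = 1 for Step2 against Step1 (ratio 0.945). Con replicate 2 set much of the size: without it Step1 minus Con was −0.210 and Step2 minus Con −0.248, against −0.481 and −0.519 with it. Within the reads of each of the 2 sequencing runs named in the read names, the ratio of Step1 to Con was 0.583 and 0.596, and that of Step2 to Con 0.577 and 0.535.

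Part of the difference lay in repeated positions, which remained although the submitters removed duplicates by molecular identifier. Histone regions held 1.29 and 1.34 reads per distinct position and strand in Step1, 1.32 and 1.35 in Step2, and 1.56 and 2.02 in Con. Over whole libraries outside piled-up windows it was 1.13 and 1.16 in Step1, 1.19 and 1.22 in Step2, and 1.24 and 1.37 in Con. Both Con libraries were thus the highest there too. With 1 read kept per position and strand, the density was 0.528 and 0.674 in Step1, 0.558 and 0.616 in Step2, and 0.718 and 0.981 in Con, again with no overlap with Con. The ratios to Con were then 0.707 and 0.691.

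**Figure D1:**
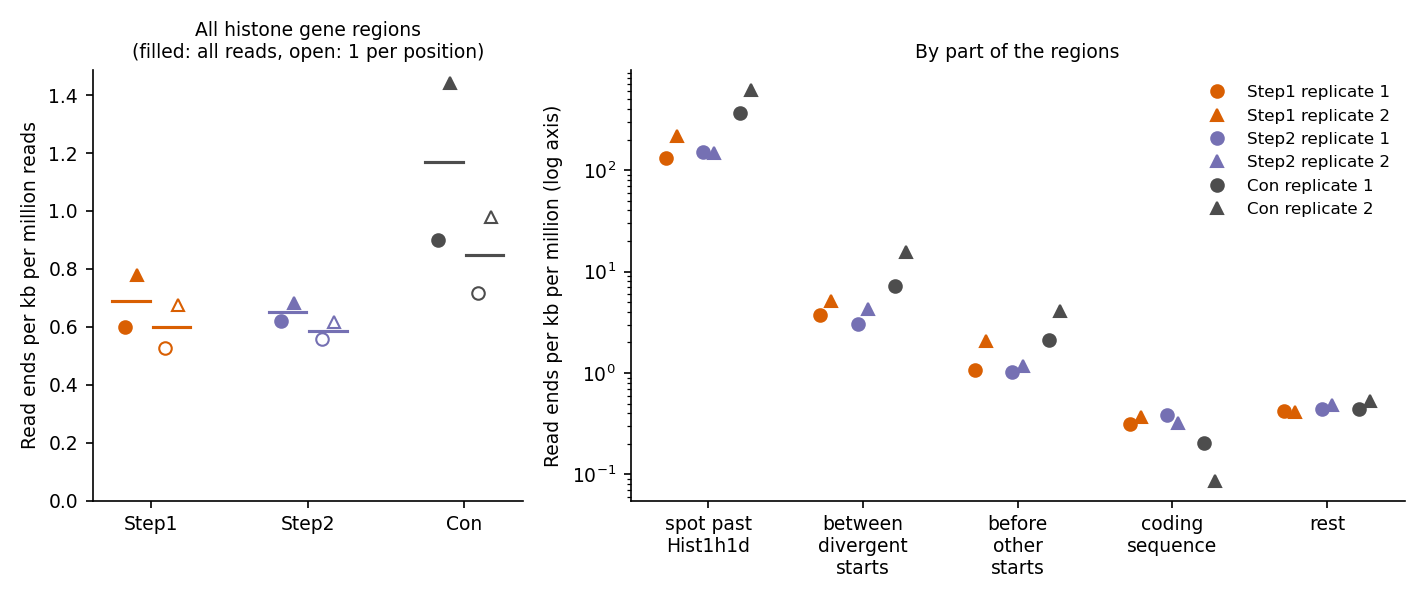
Left, density of read ends (RPKM, ends per kb per 1000000 reads) over all histone gene regions, with all reads (filled) and 1 read per position and strand (open); points are libraries and bars are group means. Right, the same density (all reads, log axis) by part of the regions: both Con libraries are highest in the spot past Hist1h1d, between divergent starts and before other starts, and lowest in coding sequence.

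The ends were concentrated before the coding starts. Coding sequence made up 13.4% of the bases and held 4.16% of the 1969 reads, while the gaps between divergent coding starts made up 1.83% of the bases and held 14.6% of the reads. The 500 bases before the other coding starts, 10.8% of the bases, held 25.4%. A single stretch of 100 bases past Hist1h1d, 0.0502% of the bases, held 16.8%. The remaining 74.0% of the bases held 39.1% of the reads.

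Between divergent starts the density was 3.74 and 5.09 RPKM in Step1, 3.01 and 4.26 in Step2, and 7.23 and 15.6 in Con. Before the other coding starts it was 1.06 and 2.08 in Step1, 1.02 and 1.18 in Step2, and 2.13 and 4.11 in Con. Both Con libraries were above all 4 others in these parts. In the rest of the regions the libraries lay close together, at 0.419 and 0.408 in Step1, 0.441 and 0.488 in Step2, and 0.443 and 0.528 in Con. There Step1 was below both Con libraries and Step2 overlapped them.

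Coding sequence ran the other way, with 19 and 19 reads in Step1, 15 and 12 in Step2, and 12 and 5 in Con. The densities were 0.313 and 0.368 in Step1, 0.386 and 0.318 in Step2, and 0.205 and 0.0860 in Con. Both Con libraries were the lowest, on small counts. Histone coding sequences are near copies of each other, and only 42.1% of their 49-base stretches occur once in the genome, against 83.7% between divergent starts. Per such position the coding density was 0.744 and 0.874 in Step1, 0.918 and 0.756 in Step2, and 0.486 and 0.204 in Con, against 0.479 and 0.467, 0.505 and 0.558, and 0.506 and 0.603 in the rest of the regions in the same order of libraries.

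In 100-base bins around the coding starts the peak fell 200 to 101 bases upstream, where the libraries held 57 and 60 reads in Step1, 25 and 26 in Step2, and 88 and 177 in Con. That bin reached 4.51 and 5.58 RPKM in Step1, 3.09 and 3.31 in Step2, and 7.21 and 14.6 in Con. From 200 to 299 bases inside the coding sequence 1 read was found over the 6 libraries, in Con replicate 2. The profile shows a narrow upstream peak in every library, and its height differed between them. From 500 to 599 bases after the coding start the order was reversed. There the density was 1.30 and 1.12 RPKM in Step1, 1.28 and 1.54 in Step2, and 0.282 and 0.997 in Con. These values rest on 19 and 14 reads in Step1, 12 and 14 in Step2, and 4 and 14 in Con.

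**Figure D2:**
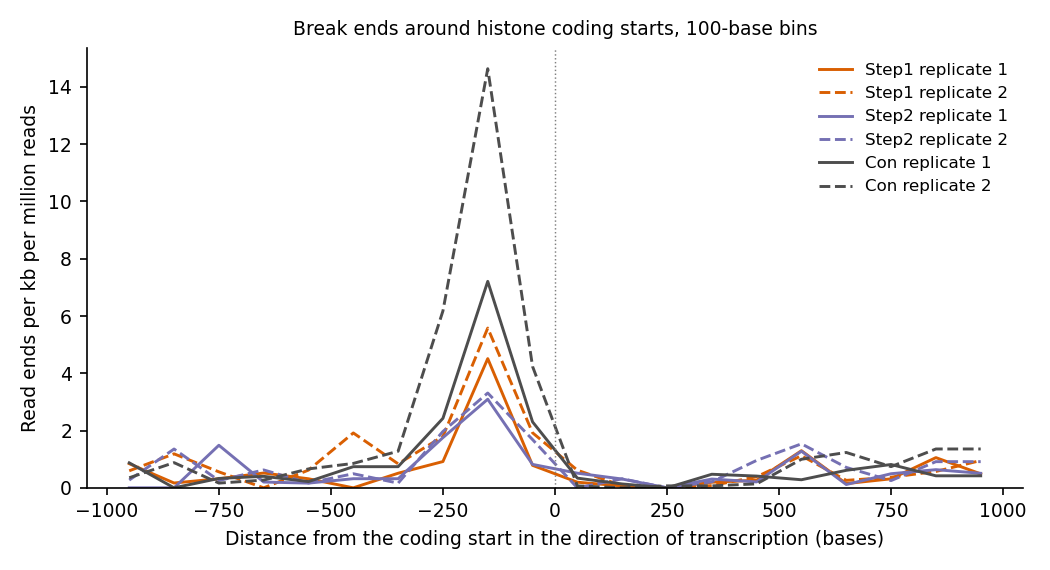
Density of read ends (RPKM) in 100-base bins from 1 kb before to 1 kb after histone coding starts, one line per library; bases nearer to another histone coding start are counted with that start. All 6 libraries peak 200 to 101 bases upstream, from 3.09 in Step2 replicate 1 to 14.6 in Con replicate 2.

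The ends also lay near CCAAT boxes. In the 300 bases before coding starts, 28.6% of the 16661 bases were within 25 bases of the centre of a CCAAT box on either strand, and 459 of 718 reads (63.9%) fell there. The share was 67.9% and 71.0% in Step1, 68.2% and 64.8% in Step2, and 61.4% and 60.9% in Con. Over distinct positions it was 288 of 446 (64.6%). CCAAT boxes and the peak both lie at a set distance from the start, so this share describes where the ends were and does not separate the box from its distance.

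Histone starts held more ends than other gene starts in every library. Within 200 bases of the annotated start, the density at the 67 histone genes was 1.24 and 1.99 in Step1, 1.04 and 1.35 in Step2, and 2.37 and 4.38 in Con. At the 21688 other protein-coding genes it was 0.729 and 0.870 in Step1, 0.716 and 0.817 in Step2, and 1.06 and 1.77 in Con. The fold of histone over other starts was 1.70 and 2.29 in Step1, 1.45 and 1.65 in Step2, and 2.24 and 2.48 in Con, a mean log2 ratio of 0.95 ± 0.31 (SD, n = 6), above 0 in 6 of 6 libraries (exact two-sided sign-flip test over libraries, p = 0.03125, the smallest possible, and 0.03125 after adjustment over 2 classes). Against the starts of 91 ribosomal protein genes the mean log2 ratio was 0.47 ± 0.16 (n = 6; the same exact test, adjusted p = 0.03125). The density at starts was defined after the data were seen, so both tests describe stretches already known to hold many ends. The lower level in Step1 and Step2 than in Con was also measured at the other starts: their density relative to flanks 4 to 5 kb away was 2.04 and 2.45 in Step1, 1.98 and 2.30 in Step2, and 2.95 and 4.78 in Con. The part of this sharpness in the histone differences was not tested.

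Over whole regions, histone genes held about the same multiple. With piled-up windows left out, histone density exceeded that of all other protein-coding genes in 6 of 6 libraries by a mean log2 ratio of 1.02 ± 0.44, that of 2244 other genes with bodies under 3 kb by 1.02 ± 0.38, that of 1135 olfactory receptor genes, which are largely silent outside the nose, by 0.94 ± 0.49, and that of ribosomal protein genes by 0.44 ± 0.28 (SD, n = 6; exact two-sided sign-flip tests, adjusted p = 0.03125 over 4 classes). None of those windows touches a histone region. With them kept, the short genes were above the histone genes in 6 of 6 libraries (mean log2 ratio −2.50, adjusted p = 0.0417, exact sign-flip test). The ribosomal protein genes were then above them in 4 of 6, not in the 2 Con libraries, and the mean log2 ratio of −0.32 did not pass (exact sign-flip test, adjusted p = 0.125). With piled-up windows left out, all other protein-coding genes were at 0.386 and 0.388 RPKM in Step1, 0.388 and 0.387 in Step2, and 0.400 and 0.412 in Con. Both Con libraries were the highest here too.

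By histone type, H1 genes had a density of 1.34 ± 0.125 in Step1 and 1.26 ± 0.103 in Step2, against 2.72 ± 0.884 in Con (SD, n = 2 each). Of their 536 reads 330 lay in the spot past Hist1h1d, and without it their density was 0.651 ± 0.112 in Step1 and 0.677 ± 0.111 in Step2, against 0.787 ± 0.171 in Con, with overlap between the groups. H4 genes had 0.397 ± 0.00933 in Step1 and 0.443 ± 0.0223 in Step2, against 0.674 ± 0.170 in Con. H2A genes had 0.899 ± 0.348, 0.790 ± 0.218 and 1.56 ± 0.525 in Step1, Step2 and Con. H2B genes had 0.623 ± 0.104, 0.518 ± 0.0385 and 1.02 ± 0.440, and H3 genes 0.893 ± 0.438, 0.784 ± 0.219 and 1.45 ± 0.753, in the same order. The Con mean was the highest for each of the 5 types, but the groups also overlapped for H3, where Step1 replicate 2 (1.20) and Step2 replicate 2 (0.939) exceeded Con replicate 1 (0.912). With 1 read per position and strand, Step1 replicate 2 also exceeded Con replicate 1 for H2A (0.980 against 0.961) and H2B (0.659 against 0.628). H4 genes then still showed no overlap with Con.

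Reads per gene were few. The median histone gene had 26 reads over the 6 libraries, 24 genes had under 20, and 15 of 67 reached the minimum of 10 reads in at least 2 libraries needed for the fit across genes. No reads mapped to Hist1h2bq, Hist1h2ao, Hist1h4m or Hist1h2br, in which at most 5.58% of 49-base stretches occur once in the genome, so few ends there could have been placed. Where ends can be placed, a count of 0 in a library still allows an expected count of up to 3 (upper 95% limit). Among the 63 genes with a read, both Step1 libraries were below both Con libraries in 21 (33.3%) and above them in 1 (1.59%). Over all protein-coding genes with a read these shares were 21.5% and 15%. The counts for Step2 against Con were 21 below (33.3%) and 5 above (7.94%), against 21.2% and 15.5% of all genes. For Step2 against Step1 they were 5 below (7.94%) and 10 above (15.9%), against 17.3% and 16.8%. Neighbouring histone genes share reads, so these counts are not independent.

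Of the 15 histone genes fitted, 1 was called in Step1 against Con (limma voom over all genes, Benjamini-Hochberg adjusted p under 0.05), beside 0.0975% of the 15379 genes tested. None was called in Step2 against Con, beside 0.104% of all genes, or in Step2 against Step1, beside 0.026%. At unadjusted p under 0.05 there were 6 histone genes in Step1 against Con, 7 in Step2 against Con and 0 in Step2 against Step1, beside 7.89%, 8.28% and 3.43% of all genes tested. The median log2 fold change of the 15 was −1.04 in Step1 and −1.38 in Step2 against Con, and −0.56 in Step2 against Step1, against −0.06, −0.06 and 0.00 for all genes tested. A gene could reach the minimum through its 2 Con libraries alone, so these counts and medians describe the genes that passed and not the 67. Neighbours among them, such as Hist1h2ae and Hist1h2bg, share reads, so the counts are not independent.

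The called gene was Hist1h1d, which encodes the linker histone H1.3 (RefSeq H1f3) and lies on the plus strand at chr13:23553262-23560686. It had 39 and 53 reads in Step1, 32 and 26 in Step2, and 92 and 147 in Con, so all 4 Step1 and Step2 libraries were below both Con libraries. It fell in Step1, by 1.31 on the log2 scale (SE 0.257, limma adjusted p = 0.0315), to 22.2 ± 7.21 RPM (ends in a library scaled to 1000000 reads), against 54.5 ± 18.1 RPM in Con (SD, n = 2). In Step2 the log2 fold change against Con was −1.38 (SE 0.302, limma adjusted p = 0.0708), which did not pass, and against Step1 it was −0.07 (SE 0.344, adjusted p = 1.00). The call in Step1 was lost without Con replicate 2 (limma adjusted p = 0.127), Step1 replicate 1 (0.969), Step1 replicate 2 (0.151) or Step2 replicate 1 (0.0523).

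These reads came almost wholly from one spot. In a stretch of 100 bases that ended 500 bases past the last coding base (chr13:23556153-23556252) lay 330 of the 389 reads, with 30 and 42 in Step1, 22 and 21 in Step2, and 80 and 135 in Con. The rest of the gene and its flanks held 9 and 11 reads in Step1, 10 and 5 in Step2, and 12 and 12 in Con. Scaled by library size these overlap, at 3.95 and 5.67 RPM in Step1, 6.85 and 3.53 in Step2, and 5.45 and 5.50 in Con. The coding sequence held 2 and 3 reads in Step1, 4 and 2 in Step2, and 0 and 0 in Con, and the 500 bases before it held 1 and 1 in Step1 and 0 in each of the others. The spot is not at the start of the gene as annotated. With it left out, the log2 fold change of Hist1h1d was −0.23 in Step1 against Con (limma adjusted p = 0.941).

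**Figure D3:**
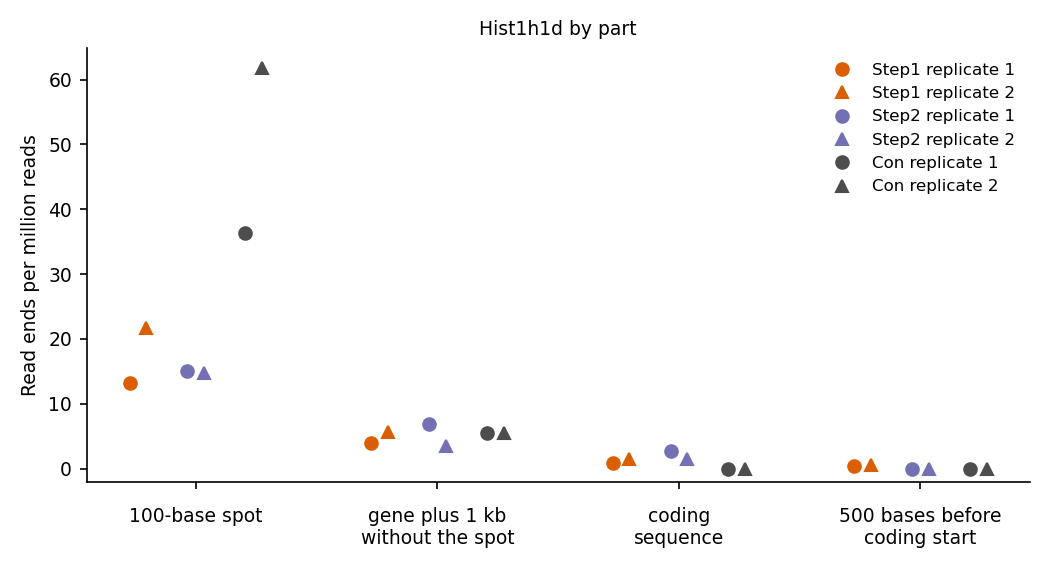
Read ends in RPM for parts of Hist1h1d, points being libraries. The 100-base spot past the coding end holds 13.2 to 21.6 in Step1 and Step2, below the 36.3 and 61.8 of Con, while the other parts stay under 7 in every library.

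The spot lies in the single long exon that GENCODE gives this gene, within its annotated 3′ UTR, and begins 346 bases past the end of the RefSeq gene. No other GENCODE gene covers it. All of its 49-base stretches are unique in the genome. Its reads used 75 distinct positions over the 6 libraries, 251 of 330 reads on the plus strand, and the busiest position (chr13, base 23556176, plus strand) held 11 and 11 reads in Step1, 0 and 4 in Step2, and 23 and 34 in Con. With 1 read per position and strand, Hist1h1d was no longer called (log2 fold change −0.37, limma adjusted p = 0.739, beside 0.178% of genes called). The spot held 3 CCAAT boxes, which occur in 18.9% of the 100-base stretches before RefSeq starts, and no octamer, TATA box or H1 box. A stretch of 30 bases from it (chr13:23556171-23556200, plus strand) took in 161 of its reads, and capitals mark the CCAAT box.
spot past Hist1h1d: aaggtggttttgagaattaaCCAATcaagc

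The other H1 genes had 17 to 42 reads each over the 6 libraries. Hist1h1a had 6 and 6 reads in Step1, 1 and 6 in Step2, and 8 and 15 in Con. Hist1h1c had 11 and 4 in Step1, 0 and 3 in Step2, and 6 and 3 in Con. Of the 536 reads of the 6 H1 genes, 389 were those of Hist1h1d.

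Of the H2A and H2B genes, 12 pairs were divergent, with gaps of 278 to 334 bases that together held 287 reads, 2 of them none. The gap of Hist1h2ae and Hist1h2bg (chr13:23571109-23571432) was the busiest, with 9 and 5 reads in Step1, 1 and 1 in Step2, and 28 and 36 in Con. All Step1 and Step2 values were below those of Con. Of its 80 reads 79 were on the minus strand, at only 18 distinct positions, and 47 sat at a single base, base 35 of the Hist1h2bg line above and 10 bases from the centre of a CCAAT box. That base held 8 and 3 reads in Step1, 0 and 1 in Step2, and 8 and 27 in Con.

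The gap of Hist1h2bf and Hist1h2ad (chr13:23574191-23574470) had 9 and 10 reads in Step1, 7 and 7 in Step2, and 14 and 30 in Con. It ran the other way in strand, with 67 of 77 reads on the plus strand, spread over 50 positions. Its busiest base, number 179 of the Hist1h2ad line, held 11 reads and lay 8 bases from the centre of a CCAAT box. The gap of Hist1h2ac and Hist1h2bc (chr13:23683918-23684231) had 8 and 11 reads in Step1, 3 and 4 in Step2, and 9 and 23 in Con, so Step1 overlapped Con. There 46 of 58 reads were on the plus strand and 22 were at base 165 of the Hist1h2ac line. That base lay 31 bases from the centre of the nearest CCAAT box.

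The strand had no fixed relation to H2A or H2B. A plus-strand read runs rightwards from the break end, which is towards the H2A gene Hist1h2ad in one gap and towards the H2B genes Hist1h2bc and Hist2h2be in 2 others. A minus-strand read runs towards the H2A gene Hist1h2ae in the busiest gap and towards the H2B gene Hist1h2bl in the gap of Hist1h2bl and Hist1h2ai, where 18 of 21 reads were on that strand. The gaps of Hist1h2bq with Hist1h2ao and of Hist1h2ap with Hist1h2br held no reads and no unique 49-base stretch. Where regions of 1 orientation only were covered, 53.1% of 1556 reads were in the sense of the gene (exact 95% binomial interval 50.6 to 55.7%, counting error only), and 48.3% (45.2 to 51.5%) with 1 read per position. By group the sense share was 51.5 ± 0.930% in Step1, 47.5 ± 0.747% in Step2 and 56.2 ± 0.856% in Con (SD, n = 2 each), and 46.1 ± 4.35%, 46.0 ± 0.718% and 51.3 ± 0.0436% in the same order with 1 read per position. The spot past Hist1h1d is among these reads, with 251 of its 330 in the sense of the gene. There 23 of 30 and 35 of 42 reads were sense in Step1 and 9 of 22 and 13 of 21 in Step2. In Con 62 of 80 and 109 of 135 were sense. The part of the spot in the sense shares and their order was not tested.

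**Figure D4:**
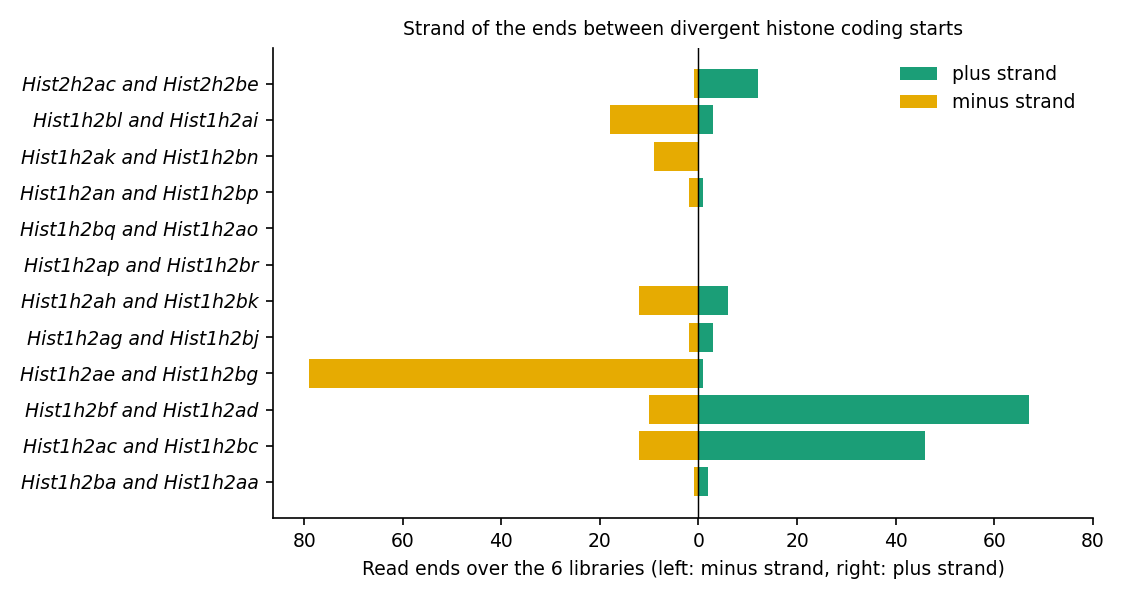
Read ends on the plus strand (right) and minus strand (left) in the 12 gaps between divergent histone coding starts, summed over the 6 libraries. Hist1h2ae and Hist1h2bg have 79 of 80 on the minus strand, while Hist1h2bf and Hist1h2ad have 67 of 77 on the plus strand.

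Hist1h2be, an H2B gene on the minus strand, had 53 and 37 reads in Step1, 28 and 18 in Step2, and 31 and 36 in Con. Its annotated model is 37455 bases long, against a median of 539 for the 67 genes, and it had the most distinct positions of all, 166. Its log2 fold change was 0.47 in Step1 against Con (SE 0.288, limma adjusted p = 0.696), 0.05 in Step2 against Con (SE 0.339, 0.981) and −0.42 in Step2 against Step1 (SE 0.322, adjusted p = 1.00), none of which passed. It was the only gene of the 4 with most reads whose Step1 libraries were both above Con.

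On chromosome 3, the H3 gene Hist2h3b (chr3:96268654-96269141) and the H2B gene Hist2h2bb (chr3:96269752-96270132), both on the plus strand, shared a site before Hist2h2bb. Hist2h3b had 15 and 19 reads in Step1, 12 and 3 in Step2, and 19 and 69 in Con. Hist2h2bb had 15 and 18 in Step1, 12 and 3 in Step2, and 16 and 65 in Con, and 125 of its 129 reads lay within its RefSeq promoter. Con replicate 2 stood far above the other Con library. The log2 fold changes against Con were −1.04 (SE 0.478, limma adjusted p = 0.611) in Step1 and −1.85 (SE 0.751, 0.535) in Step2 for Hist2h3b, and −0.91 (SE 0.495, 0.663) and −1.68 (SE 0.763, 0.575) for Hist2h2bb. Between Step2 and Step1 they were −0.81 (SE 0.801) and −0.77 (SE 0.810), both with an adjusted p of 1.00. Without Con replicate 1 the log2 fold changes in Step1 against Con were −1.97 for Hist2h3b and −1.92 for Hist2h2bb. Without Con replicate 2 that of Hist2h2bb in Step1 was 0.084. The busiest base, number 51 of the Hist2h2bb line, held ends on both strands, 25 on the minus and 14 on the plus strand. It lay 27 bases from the centre of the nearest CCAAT box.

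The 12 histone genes with the most distinct end positions also included Hist1h2bc, Hist1h2ad, Hist1h2bf, Hist1h2ac, Hist1h3a, Hist1h2af, Hist1h2ae and Hist1h2ai. Hist1h2ad had 9 and 19 reads in Step1, 7 and 7 in Step2, and 16 and 35 in Con. Hist1h2bf had 9 and 11 in Step1, 7 and 7 in Step2, and 16 and 32 in Con. Hist1h2bc had 12 and 17 in Step1, 8 and 5 in Step2, and 16 and 34 in Con. Both Step2 libraries were below both Con libraries in these 3 genes. Hist1h2ac had 11 and 11 in Step1, 6 and 7 in Step2, and 13 and 29 in Con, and Hist1h2ae 16 and 9 in Step1, 3 and 9 in Step2, and 32 and 37 in Con, with the same order. Hist1h2af had 3 and 10 in Step1, 1 and 3 in Step2, and 9 and 17 in Con. Hist1h2ai had 5 and 17 in Step1, 3 and 10 in Step2, and 9 and 16 in Con, with overlap. The H3 gene Hist1h3a had 4 and 10 in Step1, 3 and 1 in Step2, and 11 and 24 in Con.

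**Figure D5:**
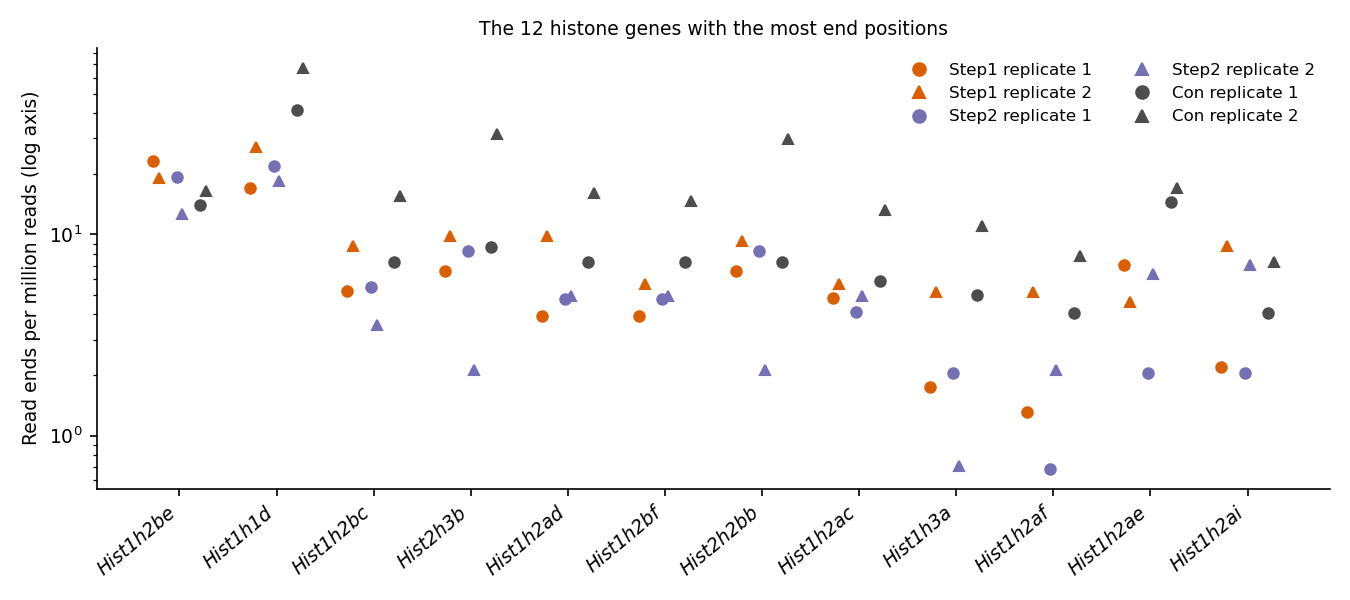
Read ends in RPM (log axis) in the gene plus 1 kb for the 12 histone genes with the most distinct end positions, points being libraries. Con replicate 2 is the highest library in all but Hist1h2be and Hist1h2ai.

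Among H3 genes, Hist1h3a, Hist2h3b and Hist1h3h held most reads. Hist1h3h had 5 and 14 reads in Step1, 1 and 10 in Step2, and 8 and 3 in Con, so the groups overlapped. H4 genes had at most 36 reads each, the count of Hist2h4, which had 6 and 4 in Step1, 3 and 2 in Step2, and 6 and 15 in Con. Hist4h4, the lone histone gene on chromosome 6, had 2 in each Step1 and Step2 library, and 4 and 3 in Con.

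Around the 3′ stem-loops the density was lower than in the 500 bases before other coding starts in every library. The stem-loop motif searched has the letters GG, CTT, T, AG and CC in this order, with 2, 1, 1 and 2 bases of any kind between them. It was found on the sense strand within 150 bases after the coding end in 65 of 67 histone genes, 25 to 62 bases on, and in 0.0231% of 21688 other protein-coding genes, among them the variant gene H2afx. It was not found in this window of Hist2h2be and Hist1h2an. The stem-loops of an H1, an H4 and an H2A gene are printed, with the motif in capitals and its 5 flanking bases on each side, to show how little they vary. The cores lie at chr13:23555787-23555802, chr13:23581950-23581965 and chr3:96220333-96220348, all on the plus strand.
Hist1h1d stem-loop: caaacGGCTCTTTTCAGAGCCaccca
Hist1h4d stem-loop: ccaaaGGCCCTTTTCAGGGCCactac
Hist2h2ab stem-loop: aaaaaGGCTCTTTTAAGAGCCaccaa
The first core was shared by 41 of the 65 genes. Within 100 bases of the stem-loops the density was 0.271 and 0.239 RPKM in Step1, 0.371 and 0.817 in Step2, and 0.491 and 0.531 in Con, on 65 reads in all. Step2 replicate 2 was there above its 0.488 in the rest of the regions. These stretches reach into coding sequence, where only 42.1% of 49-base stretches occur once in the genome.

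At the level of clusters, 10 windows of 100 kb held a histone start. None was called in Step1 against Con, beside 0.0158% of 25381 windows, in Step2 against Con, beside 0.0906%, or in Step2 against Step1, beside 0.0433%. At unadjusted p under 0.05 there were 2, 3 and 0, beside 7.27%, 8.25% and 4.29% of all windows. The window of chromosome 13 from 23500001 to 23600000, with 14 histone starts and Hist1h1d among them, had 124 and 170 reads in Step1, 91 and 95 in Step2, and 218 and 332 in Con, of which 91 and 126 in Step1, 65 and 73 in Step2, and 177 and 287 in Con lay in histone regions. Its log2 fold change against Con was −0.81 in Step1 (SE 0.230, limma adjusted p = 0.373) and −0.92 in Step2 (SE 0.225, adjusted p = 0.0689). The window of chromosome 11 from 58900001 to 59000000, with Hist3h2a and Hist3h2ba, had −0.50 in Step1 (SE 0.208, adjusted p = 0.612) and −0.66 in Step2 (SE 0.228, adjusted p = 0.340). Only 3 and 13 of its reads in Step1, 8 and 9 in Step2, and 14 and 17 in Con were in histone regions. Without Con replicate 1 the log2 fold changes against Con were −1.13 (chromosome 13) and −0.96 (chromosome 11) in Step1 and −1.23 and −1.12 in Step2. Without Con replicate 2 the chromosome 13 window was at −0.52 in Step1 and −0.61 in Step2, and the chromosome 11 window at −0.034 and −0.19.

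Genes that act on histones showed no calls. Of 14 replication-independent histone variants 9 were tested and 0 called in any of the 3 comparisons, with 3, 2 and 1 at unadjusted p under 0.05. For these counts and those of the next lists, the shares over all genes were 7.89%, 8.28% and 3.43%. Their median log2 fold change was −0.74 in Step1 against Con, −0.63 in Step2 against Con and −0.03 in Step2 against Step1. H2afy, which encodes macroH2A1 and had the most reads, had 41 and 47 in Step1, 35 and 28 in Step2, and 60 and 63 in Con (log2 fold change −0.44, SE 0.248, limma adjusted p = 0.671 for Step1 against Con). Of 18 genes of histone transcription and 3′ processing 17 were tested and 0 called (1, 1 and 0 at unadjusted p under 0.05), with medians of −0.17, −0.35 and −0.02 in the same order of comparisons. Pou2f1, the octamer factor, had 120 and 105 reads in Step1, 100 and 69 in Step2, and 92 and 108 in Con. Scaled by library size, its log2 fold change against Con was 0.23 in Step1 (SE 0.183, limma adjusted p = 0.781) and 0.35 in Step2 (SE 0.197, 0.653). All 21 histone chaperone genes were tested and 0 called (3, 2 and 1), with medians of −0.15, −0.17 and −0.13. Atrx, which helps deposit the variant H3.3, had 133 and 107 reads in Step1, 79 and 77 in Step2, and 122 and 124 in Con. Scaled by library size, the log2 fold change of Atrx against Con was 0.02 in Step1 (SE 0.160, limma adjusted p = 0.985) and −0.04 in Step2 (SE 0.179, 0.964).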

How the data were processed

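The 6 libraries came as 1 BED file each. Per the submitters' processing notes, PCR copies had been dropped by their molecular identifier, Bowtie2 had placed the rest on mm10, and SAMtools and bedtools had made the BED lines (no versions stated). Each deposited line is 1 read with a score, the aligner's mapping quality score, which ran from 11 to 42. Reads were counted at their 5′ ends in histone regions, in all gene bodies plus 1 kb and in 100-kb windows, with all reads and with 1 read per position and strand. Library size was the reads on chromosomes 1 to 19 and X outside piled-up windows (over 20 times the median of 45.0). A minimum of 10 reads in 2 or more libraries was set for the fit, made in limma 3.58.1 (voom, a mean for each group, R 4.3.3, two-sided, Benjamini-Hochberg over all features, threshold 0.05), tested on simulated data first. Single values per library were compared by exact tests. Intervals cover counting error only. Values are shares of a library and not numbers of breaks per cell.

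The members, gene lists and comparisons were chosen with earlier results of these data known. Fold changes are given for histone genes called and the 4 with most reads among those fitted, and for the 2 windows with the smallest p; the 12 genes with most positions are given as counts, and other genes were named after their values were seen. The parts of the regions, the spot, the density at starts and the distance to CCAAT boxes were also defined after seeing the data. Alternatives covered scaling, count minimum, mapping quality, region, GC content, sequencing run, replicate block, unique mapping and each library left out. Replicate differences did not correlate between groups (r of 0.03, 0.00 and 0.01 over 15379 genes).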

Additional observations from a re-analysis of the deposited data

How the results depend on the processing

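Count of histone genes called in Step1 against Con: 1 as reported, and 0 with 1 read per position and strand, with at least 20 reads in 2 libraries, in sequencing run 1, in sequencing run 2 and with the spot past Hist1h1d left out. Over all genes 25 of 14081, 7 of 10460, 2 of 9969, 17 of 11771 and 14 of 15379 were called in these settings, against 15 of 15379 in the main fit. In Step2 against Con the 0 became 1 for gene bodies without flanks, mapping quality 30 or more, piled-up windows left out and the replicate block, and 2 with limma-trend. Over all genes 13 of 13811, 23 of 15102, 42 of 15364, 88 of 15379 and 72 of 15379 were then called, in the same order, against 16 of 15379 in the main fit. The counts of 0 in Step2 against Step1 did not change in any alternative run. The called gene under the replicate block was Hist1h1d (log2 fold change −1.44, limma adjusted p = 0.00109). Leaving out 1 library gave 0 to 5 genes in Step1 against Con and 0 to 3 in Step2 against Con, with the highest counts in both without Con replicate 1. Calls over all genes also rose far above those of the main fit in both comparisons without Con replicate 1. That fit leaves a single Con library, so the higher histone counts there are not set against a share of all genes. Histone windows called in Step2 against Con went to 1 with limma-trend, piled-up windows left out and the replicate block. Over all windows 33 of 25381, 21 of 25380 and 38 of 25381 were called in these settings, against 23 of 25381 in the main fit. The replicate numbers share only a number, and the block changed no other call of a histone gene or window.

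The pooled density kept its direction against Con in all alternatives: leaving out 1 library gave −0.751 to −0.210 for Step1 minus Con, −0.789 to −0.248 for Step2 minus Con and −0.127 to 0.0505 for Step2 minus Step1. Without the spot and the divergent gaps, chosen after seeing the data, Step2 minus Con was −0.210, and with 1 read per position also −0.196, and −0.184 for Step1 minus Con. The share of reads in the 1 kb before starts, counted per gene, was 46.4%, and 42.3 to 47.6% with 1 library left out, the lowest without Con replicate 2. The sense share moved to 48.3% with 1 read per position.

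Leaving out 1 library gave mean log2 ratios of histone density of 0.72 to 0.97 over other genes, 0.76 to 1.01 over olfactory receptor genes, −2.71 to −2.38 over short genes and −0.40 to −0.20 over ribosomal protein genes, where 5 libraries cannot pass. Against short genes the ratio reversed to 0.18 with 1 read per position, 0.75 at mapping quality 42 and 1.02 without piled-up windows; against ribosomal protein genes it reversed to 0.38 with 1 read per position and 0.44 without piled-up windows, and was −0.92 for gene bodies alone, −0.55 without the spot and −0.77 without the spot and the gaps. With 1 read per position and neither spot nor gaps the ratios were 0.48, 0.43, −0.077 and 0.13 over other, olfactory receptor, short and ribosomal protein genes, none passing. The ratio to other genes was not run per uniquely mappable position.

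Signs of uncalled folds reversed for Hist1h2be in Step2 against Con with 1 read per position (−0.072), in run 2 (−0.49) and with 1 library left out (−0.24 to 0.34), and for Hist1h1d in Step2 against Step1 with 1 read per position (0.080), in run 1 (0.10), without the spot (0.12) and with 1 library left out (−0.43 to 0.24). With 1 library left out, Hist2h2bb ran from −1.92 to 0.084 in Step1 against Con, and in Step2 against Step1 Hist2h2bb from −1.69 to 0.11 and Hist2h3b from −1.72 to 0.072. The low read numbers limit every value of a single gene.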
